A study of Homo sapiens with 6 samples.

Results

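The genes described here set how a cell passes through G1, the phase in which it decides whether to copy its DNA. They are the D cyclins CCND1, CCND2 and CCND3, the kinases CDK2, CDK4 and CDK6, the kinase inhibitors CDKN1B and CDKN2C, the retinoblastoma gene RB1 and the transcription factor gene MYC. They were chosen by name, as the rows of the count table whose Ensembl identifier carries 1 of these symbols. All 10 genes were found among 60564 rows with an identifier, and all 10 passed the filter on low counts. RNA sequencing had been done on 6 libraries of HepG2, an established human liver tumour line that keeps many hepatocyte functions and is labelled wild type. Formononetin, a plant isoflavone, had been added to the cells of 3 libraries for 72 h, with 625 given as the dose in a unit spelled μm. The 3 control libraries are labelled with culture medium (DMEM) alone, no solvent control is named, and no separate culture time is given for them. All cells grew in DMEM with fetal calf serum and antibiotics.

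In G1, growth signals raise the D cyclins, which bind CDK4 or CDK6, and these kinases phosphorylate the RB1 protein. RB1 then releases E2F factors, which switch on genes for DNA synthesis, among them those of the E cyclins that activate CDK2. CDKN2C (the protein p18) binds CDK4 and CDK6 directly, while CDKN1B (p27) acts mainly on complexes of CDK2. MYC binds DNA with its partner MAX at sites with the letters CACGTG and drives growth genes. CCND1 and MYC are well known targets of beta-catenin, and hepatocytes that enter the cycle raise CCND1.

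Library totals on named genes ran from 37465148 to 45682722 counts with formononetin and from 30848848 to 36243606 in control. The groups separated on the first principal component (47.2% of the variance). Control replicate 1 lay apart from the other controls on the second (14.5%), at 24.3 against -18.1 and -5.79. Formononetin replicate 2 likewise lay apart in its group, at -16.6 against 6.97 and 9.23. Within groups, raw counts of each pair of libraries were compared over genes by chi-square per degree of freedom, which is near 1 where only sampling noise separates them. It was 15 between formononetin replicates 1 and 2, and 34.6 and 30.2 between these and replicate 3. In control it was 13.5 between replicates 1 and 3, and 25.6 and 21.1 between these and replicate 2. Which library stands apart thus depends on the measure. By counts the most distant is formononetin replicate 3, which also has the largest total.

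Of the 10 G1 genes, 5 were higher with formononetin (CDKN2C, CDK2, RB1, CCND1 and CDK6), CCND2 was lower, and CCND3, CDK4, CDKN1B and MYC did not pass the test. CDKN2C, an inhibitor, changed most, by 2.03-fold (95% interval 1.44 to 2.85), followed by CDK2 at 1.57-fold (1.34 to 1.83). The other 3 rises were between 1.09-fold and 1.20-fold. Across all 22230 genes tested, 20.7% were called at an adjusted p under 0.05 (quasi-likelihood test of edgeR with Benjamini-Hochberg adjustment), 12% raised and 8.71% lowered. The groups did not overlap for 6 of the 10 genes, against 39.4% of all genes. The median log2 fold change of the 10 was 0.25 and that of all genes tested -0.011. Of these 10, 4 were called raised and 1 lowered when control replicate 1 was left out. The raised count was 3 on leaving out control replicate 2 or formononetin replicate 1 or 2, 2 on leaving out replicate 3 of either group, and 3 with upper quartile scaling. The lowered count was 0 on leaving out replicate 2 or 3 of either group. RNA from more cells in a phase and more RNA per cell cannot be told apart in such bulk libraries.

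**Figure D1:**
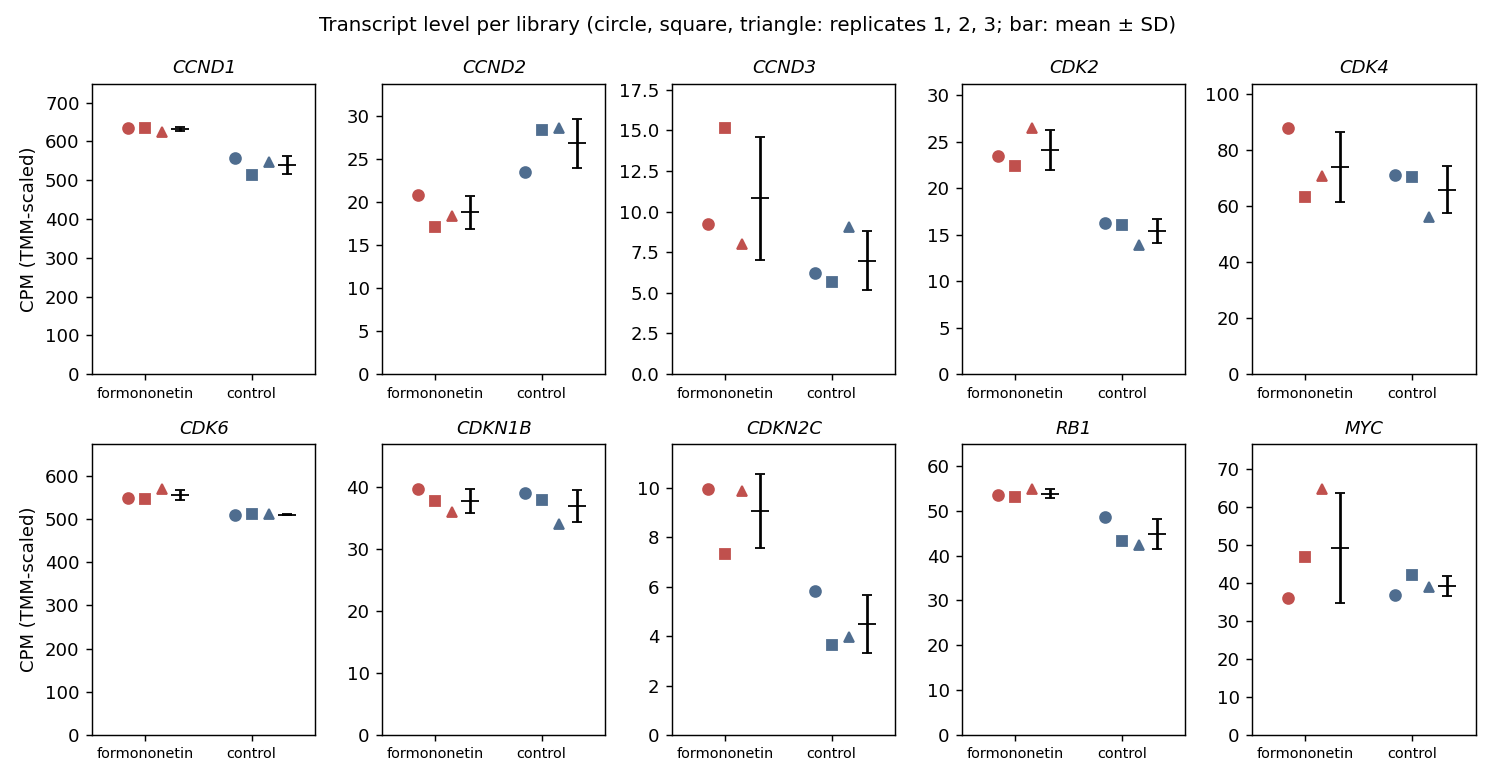
Transcript level in CPM (counts per 1000000 of the library, TMM-scaled) of the 10 genes in each library, with formononetin libraries left of control libraries, symbols for replicates and bars for the mean ± SD. Formononetin libraries lay above all control libraries for CCND1, CDK2, CDK6, CDKN2C and RB1 and below them for CCND2.

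All 8 hepatocyte and hepatoma markers were detected, and their summed level was 15758 to 16426 CPM with formononetin and 22077 to 22769 CPM in control. The sum rests mainly on TF, ALB, SERPINA1 and AFP, each lower in every formononetin library. HNF4A ran the opposite way, at 221 to 284 CPM with formononetin and 178 to 191 CPM in control, and APOA1 overlapped (1464 to 1524 CPM against 1353 to 1490 CPM). Of 5 blood cell markers, PTPRC and CD3E had no counts, and the sum was 976 to 1013 CPM against 1199.9 to 1293 CPM, nearly all from LYZ. The 3 endothelial markers summed to 24.0 to 28.2 CPM against 22.1 to 25.6 CPM. Of 4 fibroblast and stellate markers, COL1A2 and DCN had no counts, and the sum was 3.82 to 4.59 CPM against 12.9 to 15.1 CPM, mostly PDGFRB. The part of these markers in the results was not tested. The split of all calls moved with the scaling, with 2659 genes raised and 1937 lowered as reported here and 1813 raised and 2737 lowered under upper quartile scaling. There were 1703 raised genes without formononetin replicate 3 and 1272 lowered genes without control replicate 3.

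Among the D cyclins, CCND1 rose and CCND2 fell. CCND1 (ENSG00000110092, GRCh38 chromosome 11, 69641087 to 69654474) encodes the D cyclin that liver cells mainly use. It was at 635, 634 and 625 CPM in formononetin replicates 1 to 3 and at 557, 514 and 546 CPM in control replicates 1 to 3. The formononetin libraries were all higher and lay closer together (SD 5.31 CPM, against 22.5 CPM in control). Its log2 fold change was 0.23 ± 0.042 (standard error, adjusted p = 0.00906), and 0.15 under upper quartile scaling (adjusted p = 0.0457). The call held in all 17 alternative settings. LTO1 overlaps its exons on the other strand by 497 bases, and the pair summed changed by 0.22.

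CCND2 (ENSG00000118971, chromosome 12, 4273772 to 4305350) encodes a D cyclin best known from lymphoid, gonadal and neural cells. It was at 20.8, 17.1 and 18.3 CPM with formononetin and at 23.5, 28.3 and 28.6 CPM in control. Every formononetin library was below every control library, with control replicate 1 nearest to them. CCND2 changed by -0.51 ± 0.11 on the log2 scale (adjusted p = 0.0158). Leaving out replicate 2 or replicate 3 of either group ended the call, with adjusted p from 0.0542 to 0.0566 and log2 fold changes from -0.51 to -0.45.

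CCND3 (ENSG00000112576, chromosome 6, 41934933 to 42050357), the D cyclin with the widest tissue range, was not called. It was at 9.25, 15.2 and 8.04 CPM with formononetin and at 6.25, 5.64 and 9.09 CPM in control. Formononetin replicate 2 was the highest and control replicate 3 lay within the range of the formononetin libraries. The change was 0.63 ± 0.28 on the log2 scale, with a 95% interval from -0.022 to 1.28 (adjusted p = 0.162). Without formononetin replicate 2 it was 0.31.

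The D cyclins were far from equal in level. Divided by exon length, CCND1 stood at 131 ± 1.10 CPM per kilobase with formononetin and 112 ± 4.66 CPM per kilobase in control (SD, n = 3 each). CCND2 followed at 2.62 ± 0.265 against 3.75 ± 0.397 CPM per kilobase, and CCND3 at 1.86 ± 0.656 against 1.21 ± 0.317 CPM per kilobase. CCND1 thus held 96.7% ± 0.356 of the summed D cyclin level with formononetin and 95.7% ± 0.541 in control. Its groups overlapped, with formononetin replicate 2 at 96.33% and control replicate 1 at 96.35%. CCND2 held 1.94% ± 0.194 against 3.22% ± 0.422 and its groups did not overlap. Nor did its CPM, as held for 39.4% of all single genes. CCND3 held 1.38% ± 0.473 against 1.03% ± 0.25, and its groups overlapped. With the longest transcript as the length, CCND3 held 2.92% against 2.20% and CCND2 1.88% against 3.14%, so that the mean of CCND3 was above that of CCND2 in the formononetin libraries. These shares are a description without a test.

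**Figure D2:**
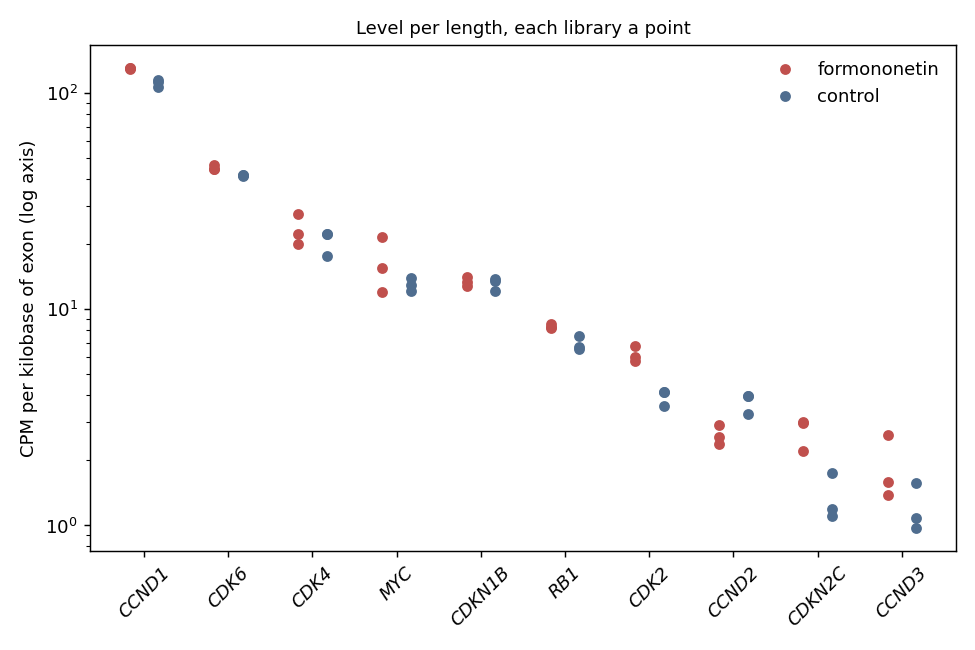
Level per length of each gene in CPM per kilobase of exon (log axis), with 1 point per library and formononetin left of control. CCND1 was highest, at 129 to 131 with formononetin and 106 to 115 in control, and CCND3 was lowest by mean in both groups.

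Among the kinases, CDK2 changed most. CDK2 (ENSG00000123374, chromosome 12, 55966769 to 55972784) acts with cyclins E and A at the start and during S phase. It was at 23.5, 22.4 and 26.5 CPM with formononetin and at 16.2, 16.1 and 13.9 CPM in control. The lowest formononetin library stood well above the highest control library. CDK2 changed by 0.65 ± 0.10 on the log2 scale (adjusted p = 0.00415), and the call held in all 17 alternative settings. PMEL and an antisense gene model overlap its exons on the other strand, and the sum changed by 0.61.

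CDK6 (ENSG00000105810, chromosome 7, 92604921 to 92836594), a partner of the D cyclins, had the smallest called rise. It was at 550.0, 548 and 571 CPM with formononetin and at 509, 512 and 511 CPM in control. The control libraries agreed closely, with the highest only 1.01 times the lowest, and all formononetin libraries lay above them. Its change of 0.12 ± 0.035 on the log2 scale was just past the threshold (adjusted p = 0.0477). The call was lost in 12 of 17 alternative settings. Leaving out any 1 of the 6 libraries ended it (adjusted p from 0.0894 to 0.159). Under upper quartile scaling the log2 fold change was 0.044 (adjusted p = 0.430).

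CDK4 (ENSG00000135446, chromosome 12, 57747727 to 57756013), the other partner of the D cyclins, was not called. It was at 87.8, 63.3 and 70.6 CPM with formononetin and at 70.9, 70.4 and 56.0 CPM in control. The groups overlapped, with formononetin replicate 1 the highest and control replicate 3 the lowest. CDK4 changed by 0.17 ± 0.14 on the log2 scale, with an interval from -0.16 to 0.49 (adjusted p = 0.451), and by 0.022 without formononetin replicate 1. TSPAN31 overlaps CDK4 exons on the other strand by 1369 bases, and the sum changed by 0.15. Per length CDK6 stood above CDK4, at 45.4 ± 1.03 against 23.3 ± 3.97 CPM per kilobase in formononetin libraries and at 41.7 ± 0.114 against 20.8 ± 2.67 CPM per kilobase in control libraries. CDK4 held 33.8% ± 3.86 of their summed level with formononetin and 33.2% ± 2.94 in control.

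Of the inhibitors, CDKN2C rose and CDKN1B did not pass the test. CDKN2C (ENSG00000123080, chromosome 1, 50960745 to 50974633) was at 9.97, 7.34 and 9.89 CPM with formononetin and at 5.82, 3.66 and 3.95 CPM in control. Control replicate 1 was the highest control and still below every formononetin library. CDKN2C changed by 1.02 ± 0.21 on the log2 scale (adjusted p = 0.0141). Without control replicate 1 it was 1.25 (adjusted p = 0.00706). Its call was lost without control replicate 3 (0.94, adjusted p = 0.0551) or formononetin replicate 3 (0.95, adjusted p = 0.0519). It rests on 280 to 448 counts per formononetin library and 131 to 177 per control library. The level of CDK6 per length was 14.9, 20.2 and 15.6 times that of CDKN2C with formononetin and 23.7, 37.9 and 35.0 times in control. For CDK4 these ratios were 9.22, 9.03 and 7.48 with formononetin and 12.8, 20.1 and 14.8 in control. Neither set of ratios overlapped between groups, and nor did CDKN2C alone. Of all single genes, 39.4% did not overlap.

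CDKN1B (ENSG00000111276, chromosome 12, 12715058 to 12722371) was at 39.8, 37.8 and 36.0 CPM with formononetin and at 39.1, 38.0 and 34.2 CPM in control. The groups covered almost the same range. The log2 fold change was 0.030 ± 0.073 (adjusted p = 0.819), with an interval from -0.14 to 0.20, or 0.907-fold to 1.15-fold. Its sign flipped under upper quartile scaling (-0.049), as it did when control replicate 3 (-0.025) or formononetin replicate 1 (-0.012) was left out. Per length the ratio of CDK2 to CDKN1B was 0.426, 0.428 and 0.531 with formononetin and 0.300, 0.305 and 0.294 in control, without overlap. CDK2 alone did not overlap either, as held for 39.4% of all single genes. The ratio of CCND1 to CDKN1B did overlap, at 9.28 to 10.1 with formononetin and 7.88 to 9.31 in control. The ratios of MYC to CDKN1B and of MYC to CCND1 overlapped as well.

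Because MYC and MAX bind CACGTG, the promoters of the genes around MYC were read for these letters. RefSeq promoters (GRCh38.p14) were at hand for 6 of the 10 genes, CCND3, CDK4, CDK6, CDKN1B, CDKN2C and RB1, and the 250 bases before each listed start were searched. For RB1 the only window, chr13:48476200-48476449, lies inside the gene, which begins at 48303726. By the gene coordinates used here, the only windows of CDK4 (chr12:57752311-57752560) and CDKN1B (chr12:12717118-12717367) also lie inside their genes. So do all windows of CCND3 and the last window of CDKN2C. The bases before the outermost annotated starts of RB1, CDK4, CDKN1B and CCND3 were therefore not searched. CACGTG, which reads the same on both strands, was in the window of CDK4 and in the first and last windows of CDKN2C. It was in 6.34% of all 35116 promoter windows. This share counts windows and not genes, and CCND3, CDK6 and CDKN2C each had several windows. The stretches are shown because these genes encode a kinase of the D cyclins and its inhibitor, of which CDKN2C passed the test and CDK4 did not. Each is given 5′ to 3′ on the gene's strand with CACGTG in capitals.
CDK4, 216 bases before its start, chr12:57752509-57752538, minus strand: atgtcaagcggtCACGTGtgatagcaacag
CDK4, 196 bases before, chr12:57752489-57752518, minus strand: atagcaacagatCACGTGgctgccatcgcc
CDK4, 101 bases before, chr12:57752394-57752423, minus strand: atgggtggcggtCACGTGcccagaacgtcc
CDKN2C, 220 bases before its first start, chr1:50960513-50960542, plus strand: gattgtgcacctCACGTGgttagtcacaca
CDKN2C, 69 bases before its last start, chr1:50970164-50970193, plus strand: ttgctgaataatCACGTGtgaatcgagggg
The E2F words TTTCCCGC, TTTGGCGC, TTTGCCGC and TTTCGCGC, searched on both strands, were in none of the windows of these 6 genes and in 2.79% of all windows. A match is no evidence of binding, and its absence covers only these letters and this window.

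RB1 (ENSG00000139687, chromosome 13, 48303726 to 48599436), the substrate of the D cyclin kinases, was at 53.5, 53.1 and 54.9 CPM with formononetin and at 48.6, 43.3 and 42.4 CPM in control. Formononetin libraries lay close together and above all controls, of which replicate 1 was the highest. RB1 changed by 0.27 ± 0.066 on the log2 scale (adjusted p = 0.0280). Leaving out control replicate 2 or 3, or any 1 formononetin library, ended the call (adjusted p from 0.0699 to 0.0953). It was also lost under upper quartile scaling (0.19, adjusted p = 0.0836).

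**Figure D3:**
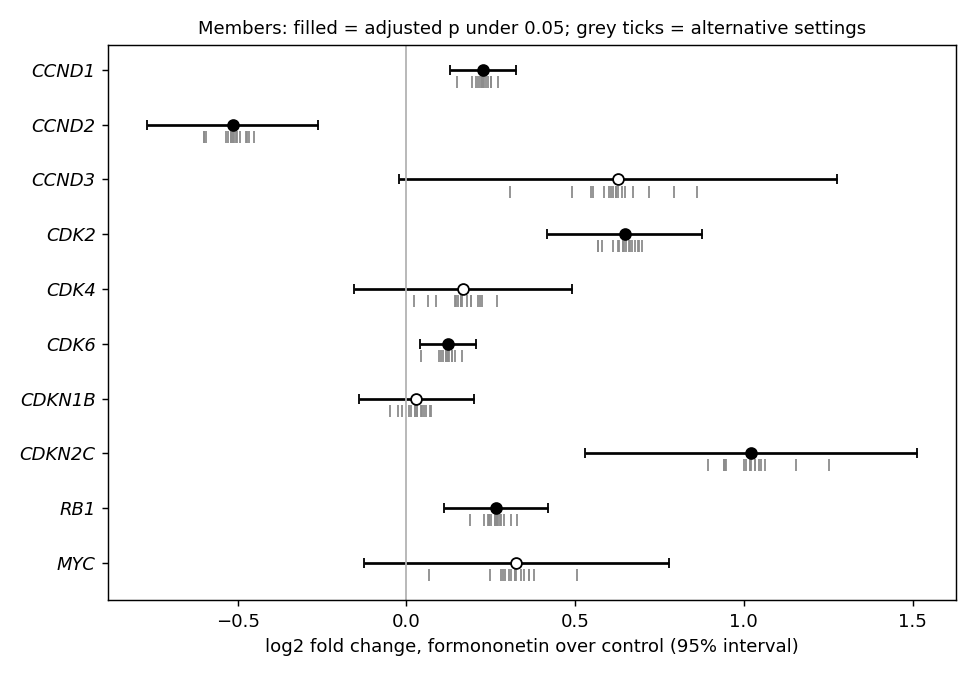
Log2 fold change of formononetin over control for the 10 genes with 95% intervals. Filled points passed an adjusted p of 0.05, and grey ticks give the alternative settings. CDKN2C lay farthest from 0, and CCND3, CDK4, CDKN1B and MYC had intervals that include 0.

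MYC (ENSG00000136997, chromosome 8, 127735434 to 127741434) differed more among formononetin libraries than between groups. It was at 35.9, 46.7 and 64.7 CPM with formononetin and at 36.7, 41.9 and 39.0 CPM in control. Formononetin replicate 1 was below every control library and replicate 3 far above. The highest formononetin library was 1.80 times the lowest, against 1.14 times in control. The difference was 0.33 ± 0.19 on the log2 scale, with an interval from -0.13 to 0.78 (adjusted p = 0.288). Leaving out formononetin replicate 3 brought it to 0.068 (adjusted p = 0.772), and leaving out replicate 1 to 0.50 (adjusted p = 0.0682).

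Ordered by level per length with formononetin, the genes ran CCND1, CDK6, CDK4, MYC, CDKN1B, RB1, CDK2, CDKN2C, CCND2 and CCND3. Neighbours whose formononetin libraries overlapped were CDK4 and MYC (20.0 to 27.7 and 12.0 to 21.6 CPM per kilobase), MYC and CDKN1B (12.8 to 14.2), CDKN2C and CCND2 (2.21 to 3.01 and 2.39 to 2.91), and CCND2 and CCND3 (1.39 to 2.61). In control CDKN1B stood before MYC and CCND2 before CDKN2C, where the first pair overlapped (12.2 to 13.9 and 12.2 to 14.0) and the second did not (3.29 to 3.99 and 1.10 to 1.76). The place of CCND3 depends on the length used. With the longest transcript in place of all exons it was at 4.52 ± 1.59 CPM per kilobase with formononetin, above CDKN2C and CCND2, and at 2.92 ± 0.767 CPM per kilobase in control.

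**Figure D4:**
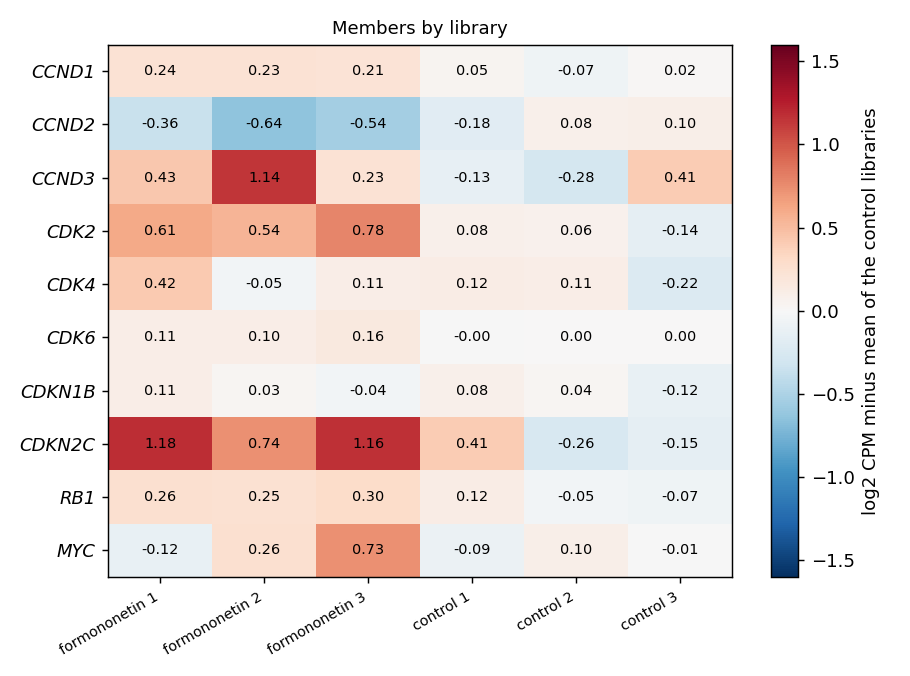
Log2 CPM of each gene in each library minus its mean over the control libraries. CCND1, CCND3, CDK2, CDK6, CDKN2C and RB1 were positive in all formononetin libraries, CCND2 was negative in all of them, and MYC ran from -0.12 to 0.73.

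The 10 genes did not share 1 pattern over the libraries. The pair with the smallest root mean square difference was CCND1 and RB1, at 0.057 on the log2 scale. Each gene was first centred on its mean over the 6 libraries. The measure is not scaled, so genes that vary little come out close. CCND1 and RB1 spanned only 0.30 and 0.37 on the log2 scale. Over 10249 other genes whose log2 CPM averaged at least 3, the profile nearest to CDK2 was that of SCP2, a peroxisomal lipid carrier (0.036), and next that of POLA1, which primes DNA synthesis (0.043). Nearest to CDKN2C were MCM2, of the replicative helicase (0.089), and GJC1, a gap junction gene (0.092). MYC was nearest to VEZF1 (0.084) and MICOS13 (0.098), CDK4 to SURF1 (0.063) and DIABLO (0.070), and CCND3 to HELLPAR and TMEM98 (0.12 each). CCND2 was nearest to PCGF3-AS1 (0.049) and PKDCC (0.050). PCGF3-AS1 is named as an antisense gene and its reads may not be separable from the other strand. These likenesses describe 6 libraries in 2 groups and hold no test.

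Downstream of the D cyclin kinases, most genes of the pocket protein and E2F list and both E cyclin genes rose with formononetin. Of 12 pocket protein, E2F and DP genes, 7 rose and 1 fell (median log2 fold change 0.50), which is 66.7% called, against 20.7% of all genes. E2F1, an activator of S-phase genes, was at 50.2, 48.2 and 55.7 CPM with formononetin and at 26.0, 17.6 and 19.7 CPM in control (1.29 ± 0.14, adjusted p = 0.00120). E2F2 rose by 1.63 ± 0.18, while E2F5, often a repressor, fell (-0.58 ± 0.11). RBL1, a relative of RB1, changed by 0.80 ± 0.087, and the other relative RBL2 was at 0.10 ± 0.042 and not called. Of 7 genes for E cyclins and CDK activation, CCNE1, CCNE2 and CDC25A rose (median 0.35), which is 42.9%. The edgeR test lowered 0 of the 7, as did DESeq2 and limma voom, and 0 were lower at an unadjusted p under 0.05. CCNE1, the partner of CDK2, was at 25.8, 22.6 and 25.9 CPM with formononetin and at 11.1, 8.63 and 9.79 CPM in control (1.33 ± 0.11, adjusted p = 0.000473). CDC25A, the phosphatase that activates CDK2, changed by 1.19 ± 0.070. The kinase CDK7 and its partners CCNH and MNAT1, which also activate CDKs, were not called.

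No CDK inhibitor outside the 10 genes passed the test, which called 20.7% of all genes. CDKN1A, CDKN2A, CDKN2B and CDKN2D were tested with edgeR, DESeq2 and limma voom, each of which called 0 of them, and 0 had an unadjusted p under 0.05 with edgeR. They had a median log2 fold change of -0.16, and CDKN1C had no counts in any library. CDKN1A, the p53-induced inhibitor of CDK2, was at 125, 130.2 and 35.6 CPM with formononetin and at 141, 123 and 139 CPM in control. Its difference of -0.47 ± 0.42 on the log2 scale (adjusted p = 0.488) rests on formononetin replicate 3, without which it was -0.080 ± 0.074 (adjusted p = 0.536). CDKN2A was at -0.36 ± 0.22 (adjusted p = 0.316). CDKN2D, an inhibitor of the same family as CDKN2C, was at 2.61 ± 0.668 CPM with formononetin and 2.32 ± 0.465 CPM in control.

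Of 14 genes for ubiquitin ligases and related proteins that act on D cyclins, p27 or MYC, 4 rose and 1 fell (median 0.020). This is 35.7% called, against 20.7% of all genes. SKP2, which marks p27 for destruction, was at 36.8, 34.7 and 35.0 CPM with formononetin and at 21.8, 17.4 and 16.8 CPM in control (0.93 ± 0.11, adjusted p = 0.00131). Its cofactor CKS1B changed by 0.63 ± 0.065. AMBRA1, the ligase adaptor that degrades D cyclins, was at 91.6, 93.6 and 87.4 CPM with formononetin and at 106, 120.5 and 105 CPM in control (-0.28 ± 0.065, adjusted p = 0.0218). AMBRA1 was thus lower in every formononetin library, and its call ended when formononetin replicate 1 or 3 was left out, with library total scaling and with all genes of at least 1 count tested. FBXW7, which targets MYC and cyclin E, was at -0.079 ± 0.090 and not called.

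Around MYC, 2 of 11 tested network genes fell (median -0.19), and this 18.2% is close to the 20.7% called among all genes. In the same list MYCN had 0 to 3 counts per library and was not tested. MNT and MXD4, which compete with MYC for MAX, fell by 0.33 ± 0.062 and 0.31 ± 0.068 on the log2 scale, and the MXD4 call ended when control replicate 3 or formononetin replicate 1 or 2 was left out (adjusted p from 0.0564 to 0.0670). MNT was at 36.5, 37.5 and 37.4 CPM with formononetin and at 44.4, 46.2 and 49.9 CPM in control. MAX itself was at -0.031 ± 0.096. The edgeR test raised 0 of the 11, as did DESeq2 and limma voom, and 0 were higher at an unadjusted p under 0.05. Only 1 network gene was lowered on leaving out control replicate 3 or formononetin replicate 1 or 2. Of 24 textbook MYC target genes, 9 rose and 2 fell (median 0.13), so that 45.8% were called, and the other 13 were not. ODC1, of polyamine synthesis, was at 210.5, 217 and 234 CPM with formononetin and at 134, 136 and 139 CPM in control (0.69 ± 0.051, adjusted p = 0.000295). SRM, of the same pathway, changed by 0.50 ± 0.058. HK2, a hexokinase, fell (-0.73 ± 0.053). With upper quartile scaling 4 of the targets were raised and 4 lowered. The raised targets numbered 4 on leaving out formononetin replicate 2, and 5 on leaving out control replicate 1, control replicate 3 or formononetin replicate 3. On leaving out control replicate 2, replicate 3 of either group or formononetin replicate 1, 1 target was lowered, and 3 were on leaving out control replicate 1.

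Of 14 genes for transcription factors that act on CCND1, CDKN1B or MYC, 1 rose and 3 fell (median -0.087), or 28.6% called, not far from the 20.7% of all genes. TCF7L2, the DNA-binding partner of beta-catenin, was at 31.2, 30.7 and 31.7 CPM with formononetin and at 41.1, 41.1 and 40.3 CPM in control (-0.39 ± 0.052, adjusted p = 0.00247). FOXO3, an activator of CDKN1B, changed by -0.27 ± 0.042 and FOXO1 by -0.22 ± 0.054. The FOXO1 call ended on leaving out any 1 library other than control replicate 1 (adjusted p from 0.0551 to 0.0900). STAT5B was the gene that rose (0.25 ± 0.058, adjusted p = 0.0218), a call that ended with upper quartile scaling, and when control replicate 2 or 3 or any 1 formononetin library was left out. CTNNB1, the beta-catenin gene, was at -0.014 ± 0.046.

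**Figure D5:**
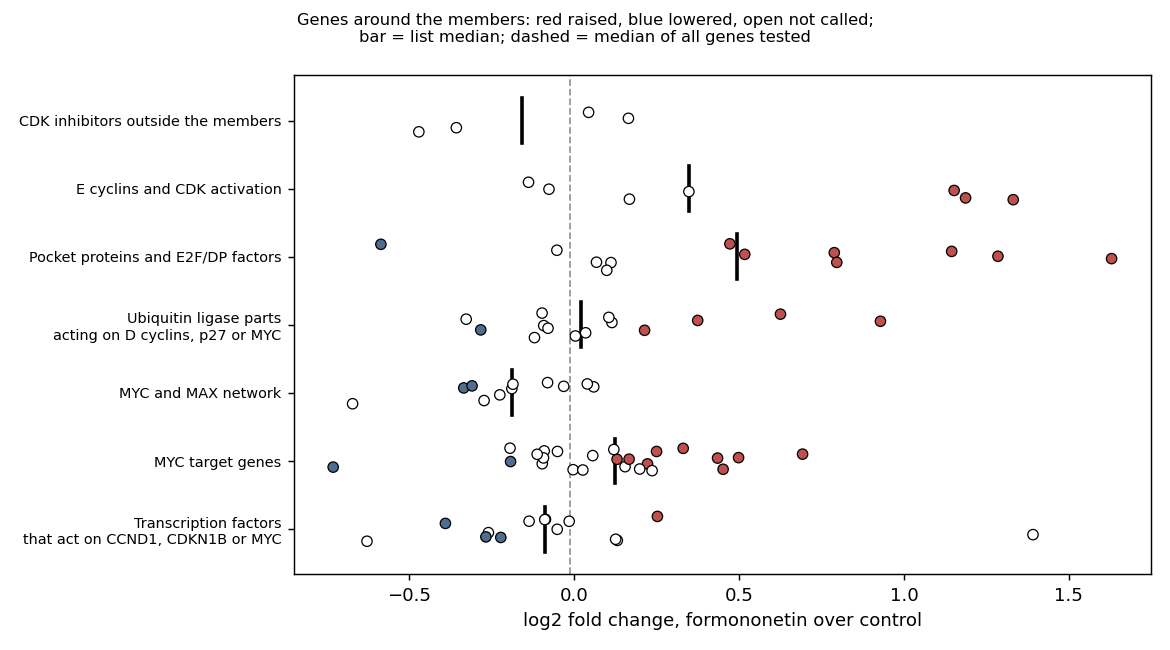
Log2 fold change of formononetin over control for the genes around the 10, grouped by role. Red points were raised, blue points lowered and open points not called, bars give each list's median and the dashed line the median of all genes tested (-0.011). The E2F group had the highest median (0.50) and the MYC and MAX network the lowest (-0.19).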

How the data were processed

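The authors deposited raw counts per gene as whole numbers, with 1 column per library. The submitters' processing notes name GRCh38, STAR 2.5.3a and StringTie 1.3.1c without their roles. How reads were counted, with which strand setting and annotation, is not given in the sources used here. Genes overlapping on either strand are therefore uncertain. Of 62729 rows, 2165 are assembled loci with no gene name (3.82 to 5.62% of counts), left out of library sizes and tests. Symbols came from a gene name table (60295 of 60564 identifiers matched), and coordinates and exon lengths from GENCODE 29. The labels do not say that replicates were separate cultures. P-values then reflect only how these libraries differ, which may be technical.

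The groups were compared in edgeR 4.0.16 (R 4.3.3) with its quasi-likelihood test after filterByExpr and TMM scaling, 3 against 3, two-sided, with Benjamini-Hochberg adjustment over all 22230 genes. The biological coefficient of variation was 0.157. CPM are counts per 1000000 after TMM scaling. Each standard error was taken as the log2 fold change over the root of the F statistic. The genes, lists and tests were chosen with earlier results of these data known. Genes named from each list were at most 2 called members in the commoner direction and 1 in the opposite one, where log2 CPM averaged at least 3. Other list genes given (RBL1, RBL2, the CDK7 group, CDKN1A, CDKN2A, CDKN2D, FBXW7, MAX, CCNE2, MYCN, FOXO1 and CTNNB1) were added after their values were seen. Alternatives were DESeq2 1.42.0, limma voom (limma 3.58.1), other scalings and filters, a replicate block, the assembled loci, summed overlapping genes and leaving out each library. Figures were drawn with matplotlib 3.10.9.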

Additional observations from a re-analysis of the deposited data

How the results depend on the processing

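CCND1 and CDK2 kept their direction and call in all 17 alternative settings, with log2 fold changes of 0.15 to 0.27 and 0.57 to 0.70. Raised members of the 10 numbered 3 under upper quartile scaling and 2 to 4 without 1 library, and lowered members 0 to 1 without 1 library. Over all genes, 1703 to 2189 were raised and 1272 to 1478 lowered without 1 library. With a replicate block, 3 of the 10 genes were raised and 0 lowered (CCND2 adjusted p = 0.0559, CDK6 0.105, RB1 0.0613). Deviations of same-numbered libraries from their group means correlated by -0.000588, 0.0158 and -0.0636. Such values show no strong effect shared by replicate number, but they cannot tell whether the libraries were paired. CDKN1B, never called, had log2 fold changes of -0.049 under upper quartile scaling and of -0.025 (without control replicate 3) to 0.069 without 1 library. The CDK6 call was also lost with RLE scaling (adjusted p = 0.0595), centring on the median gene (0.0893), a filter of 1 CPM in 3 libraries (0.0530) and DESeq2 (0.130). With the longest transcript as the length, CCND1 held 95.2% of the D cyclin level with formononetin and 94.7% in control, and CCND3 2.92% and 2.20%.

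List counts that moved by over 1.5 times were these. Raised MYC targets numbered 4 to 10 over all settings and lowered ones 1 to 4. Raised transcription factor genes were 0 or 1, lowered ubiquitin ligase genes 0 to 2 and lowered MYC network genes 1 to 3. The causes were not tested. CDKN2C and CCND3, at the lowest counts, had the widest intervals.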
